A study of Homo sapiens with 4 samples.

Results

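The genes described here are 32 leukocyte surface and lineage genes of the human genome: 15 T cell genes, 5 B cell genes, 4 genes shared by leukocytes and 8 myeloid genes. They were taken by name as known lineage genes, by a rule that uses no measured value, and each was read over its annotated hg19 span. The choice was nevertheless made with earlier results of these data known. The genes are 32 of 20098 protein-coding genes on chromosomes 1 to 22 and X, of which 19517, all 32 among them, had at least 50% of their span assayed in both ChIP replicates.

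The series used chromatin immunoprecipitation followed by sequencing (ChIP-seq) to map macroH2A1 in IMR90 cells, an established line of human fetal lung fibroblasts kept in MEM with serum, with no treatment named in the labels. It held 2 biological replicates of the macroH2A1 ChIP and 2 matching inputs. All 4 samples came from this 1 line, with the same 1% formaldehyde fixation and sonication to fragments near 500 bp, so there is neither a second cell type nor a leukocyte sample to compare with. No RNA was measured in the files used here, so neither the silence of the leukocyte genes nor the fibroblast identity of the cells could be checked by expression.

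MacroH2A1 is a variant of histone H2A with a large globular macro domain joined to its histone fold. It is known to occupy broad domains, the inactive X chromosome and many developmentally silent genes among them, although it is also found at some genes that are expressed. Leukocyte lineage genes are switched on during blood cell development, in part by the transcription factors PU.1, Ikaros and the RUNX family, and most of them are not known to be expressed in cultured lung fibroblasts.

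The deposited files divide each chromosome into segments and give each the ratio of ChIP to input as a log2 value. A value of 0 lies near the average of the library, since the ratio averaged 1.01 over the assayed bases of replicate 1 and 0.995 over those of replicate 2. Enriched segments were those with a ratio over 0 on the log2 scale and a deposited −log10 p-value of 2 or more. By this rule 35.5% of assayed bases were enriched in replicate 1 and 33.3% in replicate 2. The covered share of a gene is the percentage of its assayed span inside segments enriched in each of the replicates, and a gene at 50% or more is called covered. Segments were long, with a median of 27.4 kb in replicate 1 and 53.7 kb in replicate 2, so neighbouring genes often share a value and a short peak inside a segment would not be seen.

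The promoters printed next are those on which the locus descriptions turn: the pair of CSF1R promoters, which lay in segments of opposite sign, the adjacent T cell genes CD28 and CTLA4, which lay on either side of a step, CD3D, which was near 0, and CD68, the lowest of the 32. The sequences are from the RefSeq promoter table of GRCh38.p14 and were placed on hg19 by an exact match. Each is printed 5′ to 3′ on the gene's own strand and without annotated untranslated bases, apart from a stretch of 30 bases at CSF1R. Capitals mark GAGGAA or its reverse complement TTCCTC, the core of the purine-rich element known to bind PU.1, and TGTGGT, the core letters known to bind RUNX factors. The motifs do not overlap each other in these stretches.
CSF1R distal promoter, chr5:149492936-149493178, minus strand: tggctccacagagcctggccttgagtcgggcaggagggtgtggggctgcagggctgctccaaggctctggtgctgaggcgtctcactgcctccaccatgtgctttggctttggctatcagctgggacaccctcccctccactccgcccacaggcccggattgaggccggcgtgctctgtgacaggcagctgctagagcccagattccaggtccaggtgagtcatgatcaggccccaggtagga
CSF1R proximal promoter, chr5:149466171-149466367, minus strand: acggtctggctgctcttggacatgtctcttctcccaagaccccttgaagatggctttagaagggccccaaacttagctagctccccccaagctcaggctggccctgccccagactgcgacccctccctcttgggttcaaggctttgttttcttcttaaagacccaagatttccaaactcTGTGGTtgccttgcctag
CSF1R proximal promoter, bases next to the start site, chr5:149466118-149466147, minus strand: gcccaaggagGAGGAAGAGGAAaacaagac
CD28, chr2:204571112-204571197, plus strand: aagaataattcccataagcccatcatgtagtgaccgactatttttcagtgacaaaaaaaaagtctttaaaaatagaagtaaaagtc
CTLA4, chr2:204732244-204732493, plus strand: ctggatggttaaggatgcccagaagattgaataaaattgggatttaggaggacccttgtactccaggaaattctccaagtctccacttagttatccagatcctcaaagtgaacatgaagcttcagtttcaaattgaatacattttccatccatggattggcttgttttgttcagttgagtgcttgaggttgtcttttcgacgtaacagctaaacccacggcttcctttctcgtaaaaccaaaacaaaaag
CD3D, chr11:118213421-118213670, minus strand: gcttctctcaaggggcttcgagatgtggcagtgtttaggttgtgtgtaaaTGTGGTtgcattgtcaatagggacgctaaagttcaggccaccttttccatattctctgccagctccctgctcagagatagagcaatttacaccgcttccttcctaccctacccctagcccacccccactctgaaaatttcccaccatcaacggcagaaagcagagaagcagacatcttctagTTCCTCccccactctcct
CD68, chr17:7482706-7482808, plus strand: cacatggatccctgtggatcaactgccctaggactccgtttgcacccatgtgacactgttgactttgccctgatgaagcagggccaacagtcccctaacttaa

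Of the 32 genes, 18 had entries in the promoter table, with 24 promoters in all, and each promoter was read over the 250 bases before its start. CD3E, CD3G, CD4, CD5, CD6, CD7, CD8B, CD79B, MS4A1, ITGAL, ITGB2, ITGAX, LYZ and SPI1 had none. Exact placement on hg19 succeeded for 23 of the 24, and CD27 was the exception. Of the 23, 8 lay in segments enriched in both replicates. They belonged to PTPRC, CD28, CTLA4, ICOS, CD22, CSF1R (the proximal promoter) and CD8A, which had 2. Both of these CD8A promoters lay in the same segments, and those of CTLA4 and ICOS shared a segment in replicate 2. Only promoters of the leukocyte genes were placed, so no share over all promoters stands beside this count. On either strand, GAGGAA was present in 9 of the 24 promoters (37.5%) and in 23.6% of the 35116 promoters of the table. TGTGGT was present in 6 of 24 (25%) against 11% of all promoters, and TATAAA in 2 of 24 (8.33%) against 10.7%. The proximal CSF1R promoter held 2 copies of GAGGAA side by side and 1 copy of TGTGGT, and the distal one held neither. GAGGAA was found in 2 of the 8 promoters in enriched segments and in 7 of the 15 others that could be placed, and CD8A alone contributed 4 of these 23. CD28 has its copy of TGTGGT, and CD68 its copy of GAGGAA, outside the bases printed. The leukocyte promoters were also poorer in CpG, with a median observed-over-expected ratio of 0.247 against 0.558 and a median GC content of 53% against 58%. A match to these letters is a description of the sequence and no evidence that a factor binds there.

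Read over their spans, 13 of the 32 leukocyte genes were covered in both replicates, where 19.2% of all measured protein-coding genes were (17.4% of those on autosomes, where all 32 lie). In replicate 1 alone the count was 13 (all genes 22.4%), and in replicate 2 alone it was 16 (all genes 25.0%). The 3 genes covered in replicate 2 only were CD22, ITGAL and CD14, and none was covered in replicate 1 only. Of all 19517 measured genes, 1089 were covered in replicate 2 only and 598 in replicate 1 only. At the other end, 16 of the 32 had no base in segments enriched in both replicates, and 69.5% of all genes had none. The median covered share was 11.6% over the leukocyte genes and 0 over all genes, and it was 0 for both with a −log10 p of at least 5. With a log2 ratio above 0.5 in place of 0, the count of covered genes was 5 of 32 (all genes 11.2%). The start sites of CD3D, CD3E and CD3G, and those of ITGAM and ITGAX, share a segment in both replicates, and those of CTLA4 and ICOS in replicate 2. Counted so, the 32 genes form 28 loci, 12 of them with a covered gene. With CD8A and CD8B, whose spans but not start sites touch a common segment, counted together as well, 11 of 27 loci held a covered gene. All genes were not counted by locus, so neither locus count has a background beside it. The design has a single group of 2 replicates, so these counts are descriptions and no test was made.

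The log2 ratios of the 32 genes had a median near 0, above the medians of all genes. The median over the 32 genes was −0.12 in replicate 1 and 0.19 in replicate 2, and the medians over all genes were −0.88 and −0.75. A ratio above 0 in both replicates was found for 14 leukocyte genes (all genes 22.8%), and a ratio below 0 in both for 13 (all genes 69.7%). The remaining 5 (15.6%, all genes 7.5%) were CD2, CD22, CD14, ITGAM and ITGAX, whose sign differed between replicates. A ratio below −1 in both replicates, a threshold chosen after the values were seen, was found for 2 leukocyte genes, CD27 and CD68 (all genes 42.3%). The genes were thus spread widely, with most of them between the extremes. Ranked by mean ratio among all genes, ITGB2 stood at percentile 99.9 and CD68 at percentile 2.28.

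Replicates differed by over 0.5 for 4 of the 32 genes, CD2, CD79A, CD79B and CD14 (all genes 17.6%). Replicate 2 gave the higher ratio for 27 of the 32 (84.4%) and for 57.6% of all genes. Between the replicates, Pearson's r was 0.87 and Spearman's rho 0.83 over the 32 genes, and both were 0.91 over the 19517 genes. Genes that share a segment are not independent points in either figure.

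**Figure D1:**
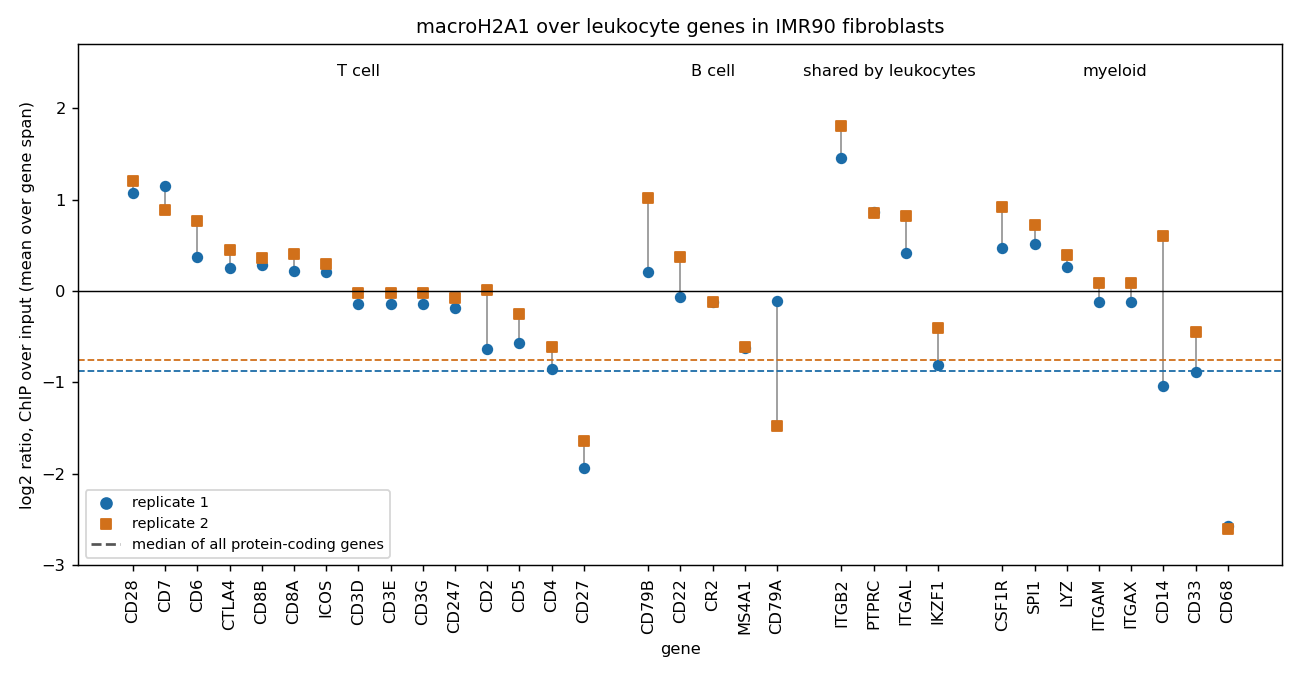
Mean log2 ratio of macroH2A1 ChIP over input across the span of each of the 32 genes (vertical axis), by lineage group and ordered by mean within it; circles are replicate 1, squares replicate 2, and dashed lines the median of all protein-coding genes in each replicate (−0.88 and −0.75). ITGB2 is highest at 1.45 and 1.81, CD68 lowest at −2.57 and −2.61, and CD14 and CD79A have the widest gaps between replicates.

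Among the T cell genes, 7 of 15 were covered in both replicates (46.7%, all genes 19.2%): CD28, CD7, CD6, CTLA4, CD8B, CD8A and ICOS. The highest was CD28 (chr2:204571198-204603635), the costimulatory receptor that T cells need for full activation, with a log2 ratio of 1.07 in replicate 1 and 1.20 in replicate 2 (mean 1.14 ± 0.09 SD, n = 2). All of its span was covered in both. The 2 values lay close together and well above the medians of all genes. CTLA4 (chr2:204718611-204738688), the inhibitory receptor that competes with CD28 for its ligands, had 0.25 and 0.45 and was covered throughout. ICOS (chr2:204801486-204826300), the inducible costimulator of the same family, had 0.20 and 0.29. It was covered over all of its span in replicate 1 and over 58.8% in replicate 2.

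CD28, CTLA4 and ICOS lie in that order on chromosome 2, and the ratio was lower at each in turn. In both replicates a long enriched stretch began upstream of CD28, at −170.4 kb from the start site in replicate 1 and −170.2 kb in replicate 2, where the segments over RAPH1 had −1.79 in replicate 1 and −1.85 in replicate 2. It ran past CD28 to a boundary 108 kb after the start site, which both segmentations placed at nearly the same point. Beyond it, replicate 2 had a single segment of 0.45 that reached from there into ICOS, and the next segment had 0.08. Replicate 1 broke the same stretch into 5 segments between −0.04 and 1.31 before its own long segment of 0.20 over ICOS. CTLA4 and ICOS were therefore above 0 in both replicates but lower than CD28 in both.

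CD7 (chr17:80272744-80275484), an immunoglobulin-family protein on T cell and NK cell precursors, had 1.15 in replicate 1 and 0.88 in replicate 2 and was covered throughout. CSNK1D, a kinase gene expressed in most tissues and 41.2 kb away, had −2.72 and −2.42. On the other side, SECTM1, 3.4 kb away, had −0.09 and 0.88, and TEX19, 41.6 kb away, had 0.64 and 0.88. In replicate 2, CD7, SECTM1 and TEX19 lay in a single segment of 79.0 kb and have the same value. CD6 (chr11:60739152-60787849), a scavenger-receptor family protein of T cells, had 0.37 and 0.76 with 91.2% of its span covered. The relative and neighbour of CD6, CD5 (chr11:60869961-60895324), 82.1 kb further along, had −0.57 and −0.25 and no covered base. The CD6 segments began 17.3 kb and 18.8 kb before its start site, whereas the first 20.2 kb of CD5 lay in segments of −0.22 and −0.02 and its end in segments of −1.93 and −1.15. CD5 and CD6 thus differed in the same direction in both replicates.

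CD8A (chr2:87011733-87035519) and CD8B (chr2:87042462-87089047) encode the chains of the coreceptor of cytotoxic T cells. CD8A had 0.22 and 0.40 with 69.3% of its span covered, and CD8B had 0.29 and 0.36 with 77.8% covered. The pair shared an enriched segment of 59.7 kb at 0.39 in replicate 1 and of 69.1 kb at 0.46 in replicate 2. That segment lay over the 3′ part of CD8B and the 5′ part of CD8A, and the CD8B start site was outside it, in segments of −0.07 and −0.15. In the window of 5 kb around the start sites of the canonical transcripts, neither gene was covered in both replicates. For CD8A that start site, at 87018036, lies inside the gene. Its window was covered over 29.8% in replicate 1 and 100% in replicate 2. CD8A promoters with start sites at 87035165 and 87035519 lay in the shared segment, enriched in both replicates.

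The other 8 T cell genes were not covered. CD3D, CD3E and CD3G, the delta, epsilon and gamma chains of the CD3 complex that passes on the signal of the T cell receptor, lay within a single segment in each replicate (chr11:118175445-118225876 from the first to the last of the 3). That segment was 164 kb long in replicate 1 and 403 kb in replicate 2. The 3 genes therefore have 1 value, −0.15 in replicate 1 and −0.02 in replicate 2, and count as a single measurement. UBE4A, a ubiquitin ligase gene 4.44 kb beyond CD3G, had −2.07 and −2.11. The CD3 genes thus sat near the library average, immediately beside a strongly depleted gene. CD247 (chr1:167394264-167487877), which encodes the zeta chain of the same complex, had −0.19 and −0.08. In replicate 1 its middle, 48.2% of the span, was in an enriched segment of 0.18, and replicate 2 had 0.08 over most of the gene with a −log10 p below the threshold.

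**Figure D2:**
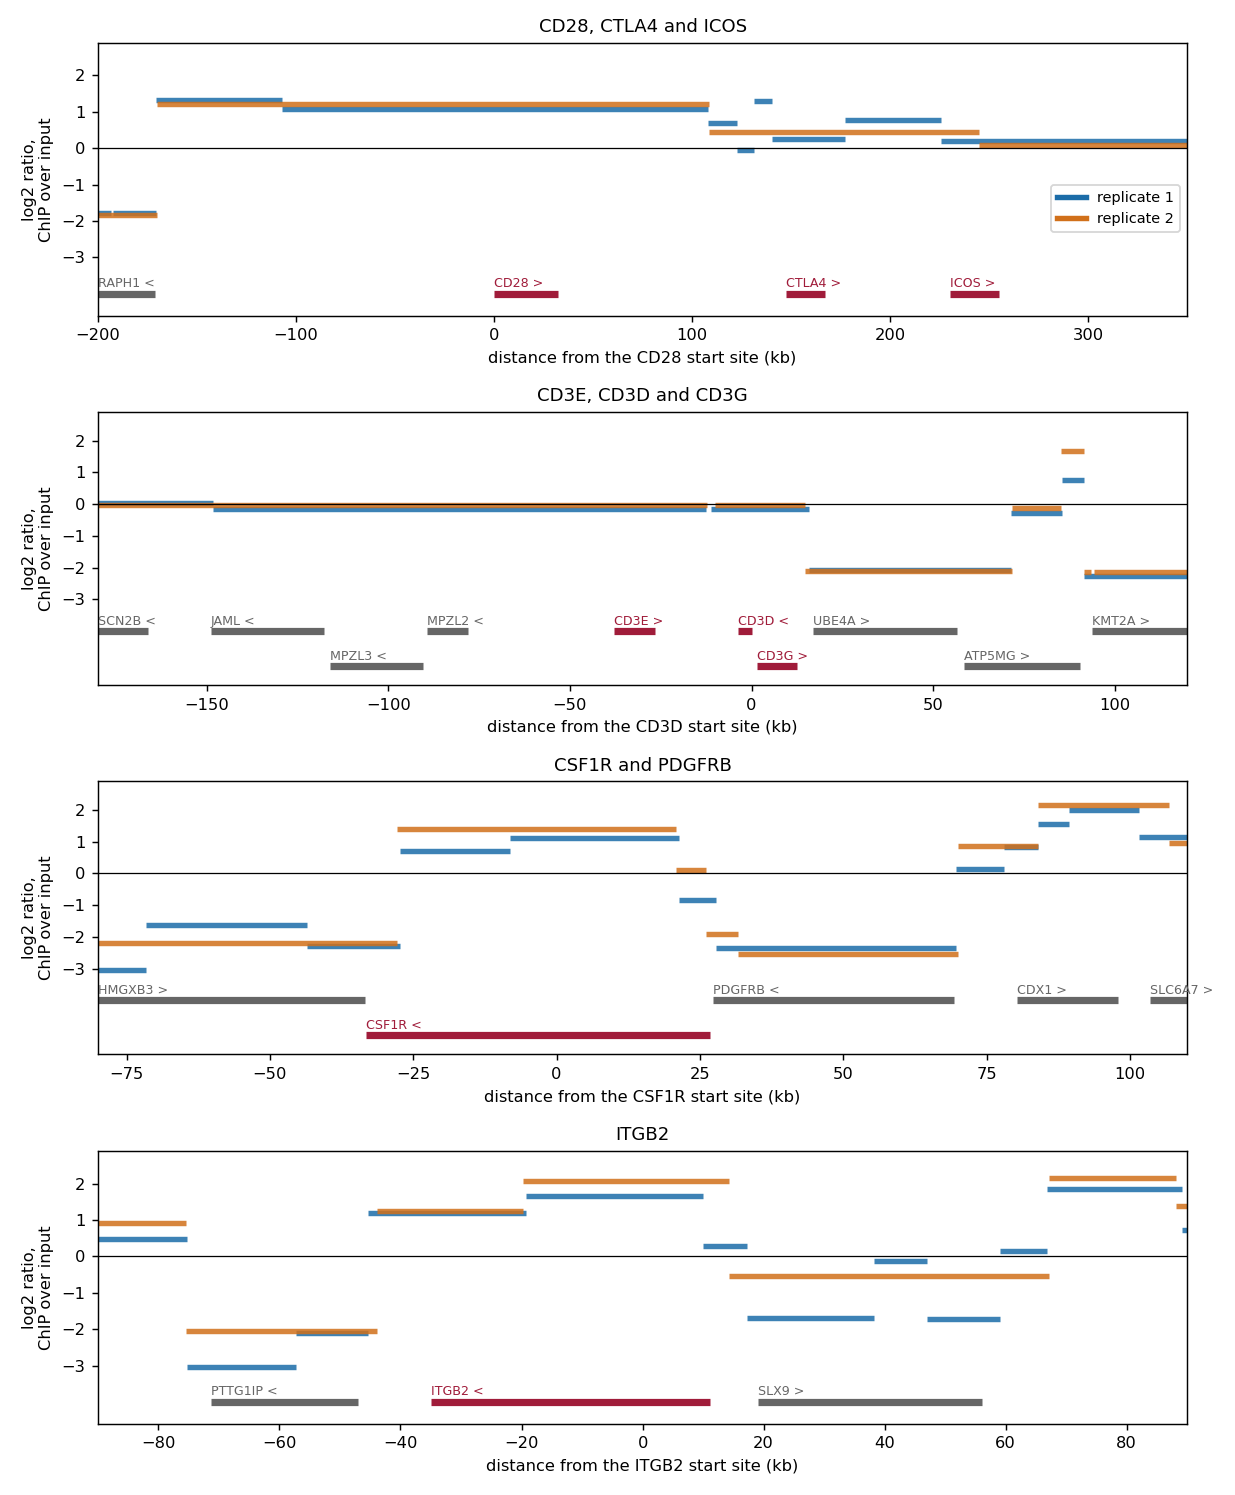
Segments (bars, log2 ratio of ChIP over input on the vertical axis) of replicate 1 (blue) and replicate 2 (orange) by distance in kb from the start sites of CD28, CD3D, CSF1R and ITGB2, with genes drawn below (red for the leukocyte genes, grey for other protein-coding genes; < and > give the strand). The CD3 genes lie in a segment near 0 that ends before UBE4A, and the enriched segments over CSF1R and ITGB2 end close to segments below 0 on both sides.

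CD2 (chr1:117297052-117311851), the adhesion receptor for CD58, had −0.64 in replicate 1 and 0.01 in replicate 2. The segment that held it was 49.8 kb long in replicate 1 and 344 kb in replicate 2, so the replicates gave it different surroundings. CD4 (chr12:6896024-6929965), the coreceptor of helper T cells, had −0.85 and −0.61. Its first bases touched a segment above 0 in each replicate (0.36 and 0.78), but the body of the gene lay in segments of −0.89 and −0.60, and the neighbouring gene GPR162, 824 bases away, had −1.93 and −2.10. CD27 (chr12:6554121-6560884), a costimulatory receptor of the TNF receptor family, had −1.94 and −1.64, the lowest of the T cell genes in both replicates. TAPBPL, which overlaps CD27, and VAMP1, 10.5 kb away, lay in the same segments and have the same values. At CD27 the ratio is thus that of a segment of 30.3 kb in replicate 1 and 31.6 kb in replicate 2 with several genes in it.

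Of the 5 B cell genes, CD79B was covered in both replicates and the other 4 were not, a share (20%) near that of all genes (19.2%). CD79B (chr17:62006098-62009696) encodes the beta signalling chain of the B cell receptor. It had 0.21 in replicate 1 and 1.01 in replicate 2, with its whole span covered in each. The segment over it was 32.4 kb long in replicate 1 and 187 kb in replicate 2. The growth hormone genes GH2 and GH1 and the placental lactogen genes CSH1 and CSHL1 lie beside it. GH2, CSH1 and CSHL1 had 0.90 in replicate 1 and shared the 1.01 of CD79B in replicate 2. These hormone genes are near-identical copies, so reads could have been split among them, and the treatment of such reads is not given in the sources used here.

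CD79A (chr19:42381349-42385439), the alpha chain of the same receptor, had −0.11 in replicate 1 and −1.48 in replicate 2. In replicate 2 its segment of 56.7 kb also held RPS19, a ribosomal protein gene 4.36 kb away, and in replicate 1 CD79A had a segment of 9.22 kb of its own while RPS19 had −2.82. The genes of the 2 chains of the receptor thus differed: all of CD79B was covered and no base of CD79A. CD22 (chr19:35810164-35838264), an inhibitory lectin of B cells, had −0.06 in replicate 1 and 0.37 in replicate 2, with 39.7% covered in both. Its annotated start site lay inside the covered part, in segments of 0.67 and 0.37.

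MS4A1 (chr11:60223319-60238225), which encodes CD20, had −0.62 in replicate 1 and −0.61 in replicate 2. It lay in a segment of 936 kb in replicate 1 and 715 kb in replicate 2, together with its relatives MS4A5, MS4A12, MS4A13 and MS4A14, and this cluster has 1 value per replicate. CR2 (chr1:207626369-207663240), the complement receptor CD21, had −0.12 in each replicate. Its start site was outside the assayed blocks of replicate 2, and it had no covered base.

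Of the 4 genes shared by leukocytes, ITGB2 and PTPRC were covered in both replicates (50%, all genes 19.2%). ITGB2 (chr21:46305868-46351904) encodes CD18, the beta chain that pairs with the integrin alpha chains of leukocytes. It had 1.45 in replicate 1 and 1.81 in replicate 2 (mean 1.63 ± 0.25 SD, n = 2), the highest of the 32 genes in both, and 97.7% of its span was covered. The start site lay in segments of 1.64 and 2.08, and the 3′ part of the gene in segments of 1.18 and 1.26. The enriched stretch was 54.0 kb long and had genes below 0 on each side. PTTG1IP, 12.1 kb away, had −2.64 and −2.04, and SLX9, 8.04 kb away on the other side, had −1.33 and −0.53. Beyond SLX9, about 67 kb upstream of the ITGB2 start site, enriched segments of 1.84 and 2.16 followed.

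PTPRC (chr1:198607587-198726605) encodes CD45, the phosphatase found on all nucleated blood cells. It had 0.86 in replicate 1 and 0.85 in replicate 2 (mean 0.86 ± 0.004 SD, n = 2) and was covered throughout. The stretch enriched in both replicates around its start site was 470 kb long (chr1:198299311-198769059), the longest at any of the 32 genes. The only other protein-coding gene in it was ATP6V1G3, a subunit of the vacuolar proton pump. PTPRC thus resembled CD28, whose stretch of 293 kb held no other protein-coding gene, more than ITGB2, although all 3 were well above 0.

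ITGAL (chr16:30483979-30534888), the alpha chain that pairs with ITGB2 to form LFA-1, had 0.41 and 0.82. With a covered share of 49.9% it was just below the line for a covered gene: in replicate 1 the enriched segment of 0.85 ended 25.3 kb after the start site, and the next, of 0.16, did not pass on its −log10 p. Replicate 2 had 98.0% of the gene in enriched segments. ZNF768, 436 bases beyond its end, had −1.92 and −1.06. IKZF1 (chr7:50343664-50472799), which encodes the transcription factor Ikaros, had −0.81 and −0.40 over the 68.0% of its span that was assayed in both, and no covered base. Its annotated start site was outside the assayed blocks of replicate 2. It was the only one of the 4 shared genes below 0 in both replicates.

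Of the 8 myeloid genes, CSF1R, SPI1 and LYZ were covered in both replicates (37.5%, all genes 19.2%). CSF1R (chr5:149432854-149492935) encodes the receptor for the growth factor that macrophages depend on. It had 0.47 in replicate 1 and 0.92 in replicate 2 over the whole span (mean 0.70 ± 0.32 SD, n = 2), with 80.2% covered. The gene has 2 promoters, both printed above. The proximal promoter, from which macrophages are known to transcribe it, lay in segments of 1.11 and 1.40. The distal promoter lay in segments of −0.85 and −1.92. These were short, 6.37 kb in replicate 1 and 5.53 kb in replicate 2. Only 0.785 kb of the replicate 2 segment was inside CSF1R, and the next segment inside the gene had 0.12.

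PDGFRB, the platelet-derived growth factor receptor gene that fibroblasts use, lies on the same strand upstream of the CSF1R distal promoter, so that its 3′ end faces that promoter. Its span is 466 bases from that of CSF1R and had −2.33 and −2.47. HMGXB3, 148 bases from the other end of CSF1R, had −2.16 and −2.18. The enriched stretch at CSF1R was 48.2 kb long and ended inside the gene at both ends. The 2 neighbouring receptor genes, which descend from a common ancestor, thus lay on opposite sides of 0 in both replicates.

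SPI1 (chr11:47376411-47400098) encodes PU.1, the transcription factor that myeloid and B cells require. It had 0.51 in replicate 1 and 0.73 in replicate 2, with 70.6% covered. In replicate 1 the gene was crossed by 5 segments between −0.14 and 1.34, and in replicate 2 by 2 segments of 0.49 and 1.20. MYBPC3, a cardiac muscle gene 2.16 kb away, was above 0 as well at 0.36 and 0.87. SLC39A13, a zinc transporter gene 28.6 kb away, had −2.74 and −2.36, and the proteasome gene PSMC3, 40.2 kb away, had −2.88 and −2.36. LYZ (chr12:69742161-69748014), the gene for lysozyme, had 0.27 and 0.39 with 67.2% covered.

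ITGAM and ITGAX (chr16:31271288-31394320 from the first to the second) encode the alpha chains CD11b and CD11c, which also pair with ITGB2. They lay in a single segment in each replicate, 230 kb long in replicate 1 and 232 kb in replicate 2, with −0.12 in replicate 1 and 0.09 in replicate 2. Among the integrin genes of leukocytes, then, the common beta chain was the highest, ITGAL was intermediate, and ITGAM and ITGAX were near 0 in both replicates. CD33 (chr19:51728320-51747115), a sialic acid binding lectin of myeloid cells, had −0.89 and −0.45.

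CD14 (chr5:140011313-140013285), the coreceptor for lipopolysaccharide, differed most between the replicates among the 32 genes, with −1.04 in replicate 1 and 0.60 in replicate 2. The gene is only 1.97 kb long. Replicate 1 had 3 segments across it, of 0.94, −1.92 and 1.89, the middle one 1.51 kb long, whereas replicate 2 had 1 segment of 68.4 kb. The 2 replicates were therefore not cut at the same scale here, and the covered share was 23.3%. CD68 (chr17:7482809-7485429), a lysosomal glycoprotein used as a macrophage marker but also known from fibroblasts, had −2.57 in replicate 1 and −2.61 in replicate 2 (mean −2.59 ± 0.02 SD, n = 2). It lay in a depleted segment of 55.9 kb and 52.8 kb that also held EIF4A1, a translation initiation factor gene 484 bases away, MPDU1, SOX15 and FXR2. The value of CD68 is thus shared by a block of genes, several of them expressed in most tissues.

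Ordered by the mean of both replicates, ITGB2 came first among the 32 genes, then CD28, CD7 and PTPRC, and CD27 and CD68 came last. ITGB2 exceeded CD28 in both replicates. CD28 and CD7 could not be ranked, since CD7 was above CD28 in replicate 1 and below it in replicate 2. CD7 and PTPRC were nearly level in replicate 2, at 0.88 and 0.85. CSF1R, SPI1, ITGAL, CD79B and CD6 followed with means between 0.57 and 0.70, and their order changed between the replicates. The genes near 0 were likewise not separable.

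By lineage, the median of the mean ratio was −0.09 over the T cell genes, −0.12 over the B cell genes, −0.01 over the myeloid genes and 0.74 over the 4 shared genes. The T cell median is the value that CD3D, CD3E and CD3G share, and the myeloid median is the value that ITGAM and ITGAX share. Genes of 1 segment were thus counted separately in these medians. The spread within each group was wide: the T cell genes ran from −1.79 to 1.14 and the myeloid genes from −2.59 to 0.70. The groups overlapped, and differences between them were not tested.

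For comparison, 60 other leukocyte genes and 30 fibroblast genes were read in the same way. MRC1 had 4.73% of its span assayed and was left out. Of the 59 other leukocyte genes measured, 24 were covered in both replicates (40.7%, against 19.2% of all genes), close to the 40.6% of the 32 genes. Their median ratio was 0.13 in replicate 1 and 0.21 in replicate 2. The highest were GNLY, a cytotoxic granule protein, with 1.18 and 1.52, ELANE, the neutrophil elastase, with 1.26 and 1.34, and the transcription factor gene RUNX3 with 0.85 and 1.28. The lowest were the tetraspanin gene CD37 with −2.48 and −2.63, LAT, an adaptor of T cell receptor signalling, with −1.99 and −2.06, and CORO1A, an actin-binding protein of blood cells, with −1.04 and −1.44. The wide spread of the 32 genes was thus present in the second list of leukocyte genes too. That list was chosen with earlier results of these data known, so it is no independent check.

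Of the 30 fibroblast genes, 3 were covered in both replicates (10%, all genes 19.2%), and 22 had a ratio below −1 in both (73.3%, all genes 42.3%). The lowest were the collagen genes COL1A1 with −3.34 and −2.92, COL6A1 with −3.29 and −2.80, and COL6A2 with −2.93 and −2.81. The covered ones were LUM, a matrix proteoglycan, with 0.96 and 0.81, ELN, the gene for elastin, with 0.65 and 0.91, and TIMP1, a protease inhibitor on chromosome X, with 0.21 and 0.72. The median was −1.72 in replicate 1 and −1.80 in replicate 2, below the medians of all genes, whereas the leukocyte genes lay above them. Both lists were chosen with earlier results of these data known, so this contrast carries no test.

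**Figure D3:**
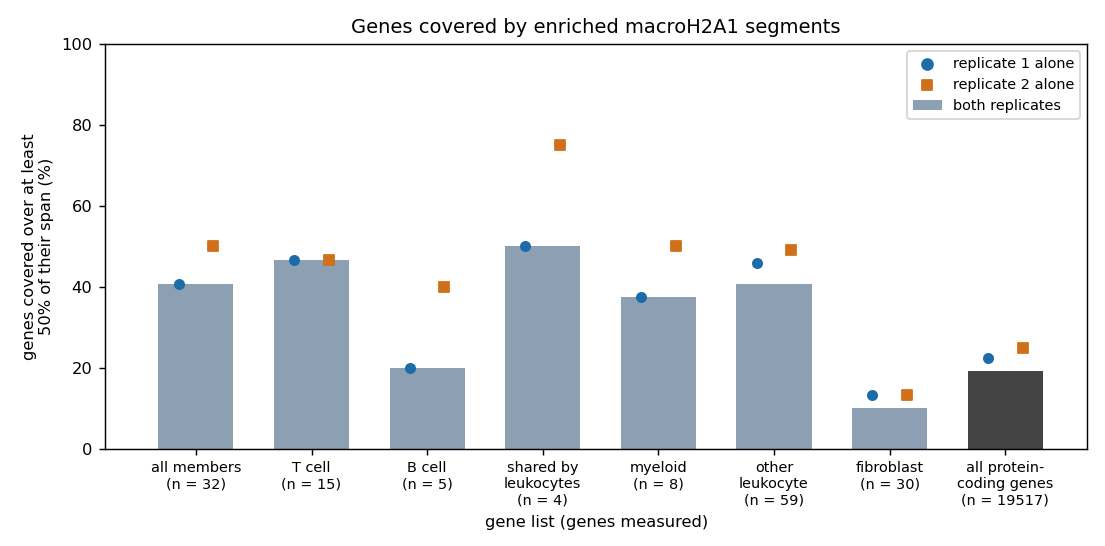
Percentage of genes covered over at least 50% of their span by enriched macroH2A1 segments (vertical axis), for each gene list with the number of genes measured; bars need both replicates, circles are replicate 1 alone and squares replicate 2 alone. The 32 genes stand at 40.6%, the other leukocyte genes at 40.7%, fibroblast genes at 10% and all protein-coding genes at 19.2%.

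Around the start sites, the drop over the 32 genes was smaller than that over genes at large. Over all genes the median ratio, averaged over the replicates, went from −0.15 in the 20 kb before the start site to −0.84 in the 20 kb after it. Over the 32 genes it was 0.13 before and −0.02 after. The medians of the 32 genes stayed between −0.07 and 0.13 from 40 kb before to 60 kb after. Between 100 and 120 kb after, their median reached −0.75, below the −0.46 of all genes there. In the window of 5 kb centred on the start site, 14 of the 32 were covered in both replicates (all genes 19.4%). CD22, ITGAL and CD14 were covered there but not over the whole span, and CD8A and CD8B the reverse. For CD8A this is the window of its canonical start site, and some of its other promoters lay in segments enriched in both replicates.

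**Figure D4:**
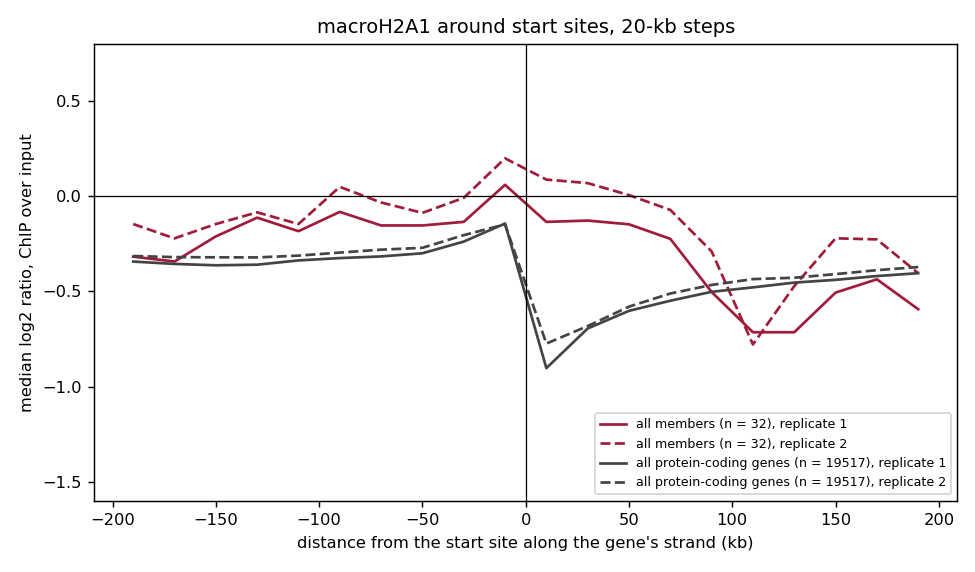
Median log2 ratio of ChIP over input in 20-kb steps (vertical axis) by distance in kb from the start site along the gene's strand, for the 32 leukocyte genes (red) and all 19517 protein-coding genes (grey), replicate 1 solid and replicate 2 dashed. All genes drop just after the start site, to −0.90 and −0.77, where the leukocyte genes are at −0.13 and 0.09.

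The start sites of 13 of the 32 genes lay in stretches enriched in both replicates. The share of all genes with a start site in such a stretch was not computed, so this count has no background beside it. There were 12 stretches in all because CTLA4 and ICOS shared theirs. The 12 stretches ran from 11.2 kb at CD22 to 470 kb at PTPRC, with a median of 51.1 kb. Over the series there were 13649 such stretches with a median of 28.1 kb, but a longer stretch is more likely to hold any given site, so the medians cannot be compared directly. After PTPRC and CD28, the longest were at CD79B (186 kb, with CSH2, GH2, CSH1, CSHL1, GH1, a gene known by the identifier ENSG00000285947, SCN4A, PRR29 and ICAM2), at CTLA4 and ICOS (113 kb) and at CD6 (61.7 kb).

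The values beside the leukocyte genes were compared with those beside all genes. Of the 32 genes, 27 had a protein-coding neighbour within 50 kb (all genes 89.8%), and 16 of these had a neighbour more than 1 log2 unit lower in both replicates (all genes 24.5%). The 16 include CD3D, CD3E and CD3G, which share the step to UBE4A, and CD8A and CD8B, which share the step to RMND5A. Counted by locus, 13 of 23 with a neighbour had such a step, and no share over all genes was computed by locus. A neighbour more than 1 higher in both was present for 1 of the 27, CD68 (all genes 30.3%). The median over 100 kb on either side of the genes was −0.56 in replicate 1 and −0.38 in replicate 2. The gene itself was above this flank in both replicates for 19 of the 32 (all genes 29.0%) and below it in both for 8 (all genes 58.1%). These shares take no account of the level of the gene itself, and no test was made. The neighbour shares also take no account of the number of neighbours. The 32 genes had a median of 13.5 protein-coding start sites within 250 kb, and all genes 6.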

How the data were processed

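Chromatin of IMR90 cells was precipitated with an antibody against macroH2A1 and sequenced beside its input, per the labels' protocols. The submitters' processing notes name CASAVA 1.7 and hg19. Not given in the sources used here: aligner, segmentation program, duplicate treatment and scaling. The 2 ChIP replicates have separate files, each a segmentation of the genome and not a list of called peaks (46951 and 25583 segments used), and the inputs enter only through the authors' ratio. The files carry no read numbers: depth is unknown, and counting intervals could not be computed.

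The authors deposited a log2 ratio per segment. Its base was inferred from the values, since 2 raised to them averaged 1.01 and 0.995 and e raised to them 1.14 and 1.12. They also deposited a −log10 p-value per segment, used only with a minimum of 2 to select enriched segments. Of the segments with a ratio below 0, 3558 and 1840 also passed that minimum and were not called enriched.

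Gene spans, and start sites of Ensembl canonical transcripts, came from GENCODE release 44 mapped to GRCh37. The ratio of a gene is the mean over its assayed bases, gaps between blocks excluded. Stretches enriched in both replicates were joined over gaps of up to 1 kb. Chromosome Y and the mitochondrial sequence were left out. The 32 genes and all lists were chosen with earlier results of these data known. All 32 genes are named. Of the other leukocyte and fibroblast lists, the 3 highest and 3 lowest genes by mean ratio are named, and of the neighbours, the genes within the 5 longest shared stretches. Further neighbours were named after their values were seen, to describe a step. With 2 replicates in 1 group, values are given per replicate or as mean ± SD, without tests.

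Alternatives were a start-site window, the canonical transcript, other thresholds for the ratio, p-value, assayed share and covered share, whole segments with gaps, the mean instead of the median, autosomes only, and each replicate alone. The interval code was tested on simulated data, where 996 of 996 intervals equalled a count base by base. Python 3.11.15, numpy 2.4.6, scipy 1.17.1 and matplotlib 3.10.9 were used.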

Additional observations from a re-analysis of the deposited data

How the results depend on the processing

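Of the alternative values computed for summary counts and medians, 47 stayed close to the reported value and 15 did not. The rule for counts was loose. Against 13 covered genes, 10 with a −log10 p of at least 5 (all genes 16.15%) was taken as close. So was 16 with at least 20% of the span (all genes 24.7%). The count of 13 covered genes became 5 with a log2 ratio above 0.5 (all genes 11.2%) and 8 with at least 80% of the span (all genes 15.1%). The count of B cell genes became 2 in the start-site window and ranged from 1 to 2 with either replicate left out. The median covered share of 11.6% was the least stable value. It was 0 in the start-site window, over the canonical transcript, with a −log10 p of at least 5 and with a log2 ratio above 0.5, and 0 over all genes in each. It was 31.5% with no p threshold, 23.3% over the 31 genes with at least 90% of the span assayed, and 31.5% to 32.8% with either replicate left out. The mean in its place was 38.3%, against 19.9% over all genes. The background share was 17.4% on autosomes only. Of 96 alternative values for single genes, 88 kept their sign and 8 did not. In the start-site window, CD8B had −0.11, CD5 had 0.077 and CD14 had 0.41. Without replicate 1, CD14 had 0.60, CD2 had 0.0059 and ITGAM and ITGAX had 0.093, and without replicate 2, CD22 had −0.064. The 47 and 15 values include those of 3 settings chosen after seeing the data. Counting loci gave 12 of 28 by start sites and 11 of 27 by spans, without a share over all genes counted by locus. A threshold of −0.5 in place of −1 gave 4 low genes (all genes 55.8%). Among the 47 are also all alternatives for the count of genes below −1 that kept −1. That threshold was likewise chosen after the values were seen. The cause of these shifts was not tested. No paired analysis was possible because the inputs have no values of their own here and the ChIP samples form a single group. With 2 replicates, long segments and unknown depth, the data cannot show macroH2A1 at the scale of a promoter, and the segment values give no absolute amount.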

Other observations

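The 32 leukocyte genes lie in gene-rich surroundings, with a median of 13.5 protein-coding start sites within 250 kb against 6 for all genes. Of the 32, 18 were in the most gene-dense of 3 equal-rank classes of all genes, and 4 of these 18 were covered in both replicates, where 17.4% of the class was. In the class with the fewest neighbours, 5 of 9 leukocyte genes were covered, among them PTPRC and CD28, where 19.4% of the class was. In the middle class 4 of 5 were covered, where 20.9% of the class was, so the share of covered genes did not follow the order of the classes. For the mean log2 ratio against the number of nearby start sites, Pearson's r was −0.49 and Spearman's rho −0.37 over the 32 genes, and −0.15 and −0.16 over all 19517 genes. Genes in a locus share both their segments and their neighbours, so these are descriptions.

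The leukocyte genes had a median GC content of 47.6% against 45.2% for all genes and a median length of 24.3 kb against 28.1 kb. Of the 7 in the class of lowest GC content, 5 were covered (14.9% of the class), of the 11 in the middle class 3 were covered (19.4% of the class), and of the 14 in the class of highest GC content, 5 were covered (23.4% of the class).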
